A study of Mus musculus with 16 samples.

Results

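The bodies of long expressed genes are described here, that is, of autosomal genes whose annotated extent was at least 100 kb and whose mean over both RNA-seq libraries of 60–65 μm oocytes was at least 1 RPKM (reads scaled to exon length and library total, a unit inferred from the values). Of the 25965 genes of the expression table, 24483 lay on chromosomes 1 to 19, 2323 of these were at least 100 kb long, and 971 passed both limits. These members had a median extent of 151 kb and a median of 3.57 RPKM at 60–65 μm, with a highest value of 61.8 RPKM. The rule used length and RNA at 60–65 μm and no methylation value, although it was set with earlier results of these data known. Just inside the limit lay 2410089E03Rik, Znrf3 and Camta1 with 1.00, 1.01 and 1.01 RPKM, and just outside it lay Ttbk2, Ptprt and Dscam, each with 0.998 or 0.997 RPKM. Comparisons are made with the 821 autosomal genes of the same length below 0.1 RPKM, called silent long genes below, and with the 531 genes of intermediate RNA level between 0.1 and 1 RPKM.

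All oocytes came from wild-type C57BL/6 mice (C57BL/6Babr in the study's methods) and were picked by diameter, in pools of many cells. The 40–45 μm class was collected on postnatal days 7 to 12, the 50–55 μm class on days 9 to 14 and the 60–65 μm class on days 13 to 16, so that age and diameter moved together and cannot be told apart. Methylation was measured by RRBS, which reads CpG-rich fragments, in replicates A and B of each of these classes (30000113 to 57319823 calls per library), and by PBAT, which samples the whole genome, in 1 library of 60–65 μm oocytes with 99039028 calls. A call is 1 read of 1 CpG cytosine, and a methylation level is the percent of calls that were methylated. RNA-seq libraries A and B were available for the 3 classes and for 10–30 μm oocytes of days 5 to 7, with 1 column for fully grown germinal vesicle (GV) oocytes of day 20. Nothing in the labels says that replicates came from separate animals, and p-values measure the spread between these libraries. Of the oocyte markers 12 of 12 were at 1 RPKM or more in every library, with a summed level of 3364 to 4416 RPKM in growing oocytes, while the 8 granulosa cell markers summed to 0.621 to 2.50 RPKM, the 7 theca and stroma markers to 0.454 to 3.11 RPKM and the 3 blood markers in the table to 0.203 to 0.388 RPKM. In pools of cells, fewer oocytes with a transcript or a methylated copy and less of it in each oocyte cannot be told apart.

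As background, the oocyte genome enters growth with little DNA methylation, and DNMT3A with its cofactor DNMT3L then adds methyl groups de novo before the oocyte is fully grown. In mature mouse oocytes most methylation lies within transcribed gene bodies, where elongating RNA polymerase II brings H3K36 methylation, a histone mark that the methyltransferase complex binds. H3K4 methylation at active gene starts repels this complex. Long genes allow the distance from the start, the interior and the end to be looked at apart.

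Sequences are shown for 3 members with high body methylation, so that their start can be set beside a CpG-rich stretch of their body. They are taken from GRCm38 on the strand of the gene, in lower case with each CpG in capitals. Start sequences are from the RefSeq promoter set (GRCm38.p6), in which 703 of 971 members were found by symbol, and only the part outside annotated untranslated exons is given. Prex1, an activator of the small GTPase Rac, has its start sequence at chr2:166713833-166714082 (minus strand) and a body stretch that includes coding bases 104 kb further in, at chr2:166609760-166610041. Adcy9, an adenylyl cyclase, has its start sequence at chr16:4420499-4420748 (minus strand) and a coding stretch 132 kb inside, at chr16:4288452-4288741. Klhl2, a substrate adaptor of a ubiquitin ligase, has its start sequence at chr8:64850018-64850174 (minus strand) and a partly coding stretch 91.4 kb inside, at chr8:64758110-64758402.
Prex1 start: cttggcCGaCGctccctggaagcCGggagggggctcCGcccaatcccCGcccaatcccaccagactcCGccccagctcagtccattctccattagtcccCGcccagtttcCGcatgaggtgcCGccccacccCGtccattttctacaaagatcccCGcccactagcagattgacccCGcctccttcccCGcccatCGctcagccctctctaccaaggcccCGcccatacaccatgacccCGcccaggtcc
Prex1 body: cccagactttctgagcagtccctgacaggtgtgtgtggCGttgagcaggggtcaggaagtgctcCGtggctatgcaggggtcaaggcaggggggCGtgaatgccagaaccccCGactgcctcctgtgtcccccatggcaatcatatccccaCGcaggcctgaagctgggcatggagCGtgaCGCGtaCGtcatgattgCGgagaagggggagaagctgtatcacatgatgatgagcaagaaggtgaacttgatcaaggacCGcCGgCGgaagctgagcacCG
Adcy9 start: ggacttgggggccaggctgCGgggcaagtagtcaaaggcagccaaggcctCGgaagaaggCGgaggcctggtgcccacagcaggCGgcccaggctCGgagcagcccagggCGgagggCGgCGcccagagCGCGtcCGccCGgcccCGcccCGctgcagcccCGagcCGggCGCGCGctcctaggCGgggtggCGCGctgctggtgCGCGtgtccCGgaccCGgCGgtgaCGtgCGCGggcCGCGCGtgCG
Adcy9 body: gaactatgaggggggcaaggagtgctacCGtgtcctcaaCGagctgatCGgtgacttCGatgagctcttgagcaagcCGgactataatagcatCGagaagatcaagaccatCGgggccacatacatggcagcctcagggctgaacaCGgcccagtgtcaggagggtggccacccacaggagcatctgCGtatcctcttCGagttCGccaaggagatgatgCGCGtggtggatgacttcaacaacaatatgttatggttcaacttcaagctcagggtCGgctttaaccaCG
Klhl2 start: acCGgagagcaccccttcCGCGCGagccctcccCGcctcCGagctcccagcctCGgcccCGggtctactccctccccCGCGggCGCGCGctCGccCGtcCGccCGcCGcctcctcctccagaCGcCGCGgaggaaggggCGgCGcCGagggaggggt
Klhl2 body: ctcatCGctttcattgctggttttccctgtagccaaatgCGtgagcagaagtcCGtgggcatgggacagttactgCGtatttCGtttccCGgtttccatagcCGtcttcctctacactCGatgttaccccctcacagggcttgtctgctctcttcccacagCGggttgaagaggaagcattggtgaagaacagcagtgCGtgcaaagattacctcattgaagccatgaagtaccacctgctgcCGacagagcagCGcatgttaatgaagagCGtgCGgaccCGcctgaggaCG

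In PBAT the Prex1 start sequence with 16 CpG sites was methylated at 5.99% (10 of 167 calls, 95% Wilson interval 3.28 to 10.7), and the body stretch with 14 CpG sites at 89.5% (85 of 95 calls, 81.7 to 94.2). For Adcy9 the start sequence with 34 CpG sites stood at 1.42% of 563 calls (0.722 to 2.78) and the body stretch with 15 at 60.1% of 183 calls (52.9 to 66.9). For Klhl2 these values were 3.38% of 207 calls (1.65 to 6.81) and 40.4% of 52 calls (28.2 to 53.9). Intervals do not overlap between start and body in any of the 3 genes, and they cover counting error only. These genes were picked for their high body level, so the contrast is an illustration.

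Other stretches are shown from members of low body level, or because another gene starts there. The stretch of Prdm16, a zinc-finger transcription regulator, lies 308 kb inside the gene at chr4:154328582-154328881 (minus strand, partly coding). That of Camta1, a calmodulin-binding transcription activator, lies 718 kb inside at chr4:151143762-151144052 (minus strand, coding). The start sequence of Dcp1a, a decapping factor of messenger RNA, lies 11.6 kb inside the calcium channel gene Cacna1d at chr14:30479315-30479611 (plus strand).
Prdm16 body: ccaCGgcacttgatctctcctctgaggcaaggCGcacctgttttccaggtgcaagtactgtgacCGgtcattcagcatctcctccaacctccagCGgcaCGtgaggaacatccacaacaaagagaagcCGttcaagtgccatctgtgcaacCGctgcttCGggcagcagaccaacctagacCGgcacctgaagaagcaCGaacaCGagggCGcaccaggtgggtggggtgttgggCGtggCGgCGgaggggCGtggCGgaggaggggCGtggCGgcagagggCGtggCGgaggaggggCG
Camta1 body: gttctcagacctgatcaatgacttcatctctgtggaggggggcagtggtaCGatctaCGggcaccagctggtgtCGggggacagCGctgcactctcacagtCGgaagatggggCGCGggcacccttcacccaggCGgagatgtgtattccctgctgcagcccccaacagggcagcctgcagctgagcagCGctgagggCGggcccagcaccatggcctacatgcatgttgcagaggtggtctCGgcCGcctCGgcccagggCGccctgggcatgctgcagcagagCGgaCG
Dcp1a start inside Cacna1d: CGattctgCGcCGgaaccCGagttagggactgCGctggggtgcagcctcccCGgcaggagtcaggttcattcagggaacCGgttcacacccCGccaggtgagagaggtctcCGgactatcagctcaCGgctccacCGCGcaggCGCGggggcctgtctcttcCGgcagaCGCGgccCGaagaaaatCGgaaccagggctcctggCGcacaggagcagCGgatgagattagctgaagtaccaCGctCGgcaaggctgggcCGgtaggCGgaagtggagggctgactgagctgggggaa

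The Prdm16 stretch with 22 CpG sites was at 1.61% of 124 PBAT calls (95% Wilson interval 0.443 to 5.69) and between 0.746% and 3.72% in all 6 RRBS libraries. It lay in the more methylated last part of the gene. There the 5-kb bins from 280 kb on averaged 42.4%, against 9.79% for those from 10 to 280 kb, so this low stretch is not typical of its surroundings. The Camta1 stretch was at 19.7% of 178 calls (14.5 to 26.1), and the Camta1 body, which has parts of high and of low level, at 18.2%. The 5-kb bin that holds the stretch was at 13.1%, and the bins before and after it at 7.60% and 4.07%. The Dcp1a start was at 3.18% of 283 calls (1.68 to 5.93) and stayed between 0.301% and 1.41% in the RRBS libraries of all 3 classes. The whole Cacna1d body averaged 49.8%, which is not the level next to this start, 11.6 kb from the Cacna1d start. Over all members the bin from 10 to 15 kb averaged 40.1%. Dcp1a had 51.9 RPKM at 60–65 μm and Cacna1d 1.08 RPKM.

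To profile the bodies, PBAT calls were pooled in 5-kb bins from the gene start, and bins with at least 20 calls were used. A body level is the mean over the bins from 10 kb after the start to the gene end. Of 39273 body bins 38754 (98.7%) were measured, with 8316189 calls and a median of 163 calls per bin, and 970 of 971 members had a level (Gm2104 on chromosome 14 had no measured bin). The bodies of long expressed genes were intermediately methylated, with a mean of 49.5% ± 12.01 (SD over 970 genes) and a median of 51.7%. The lowest and highest genes were at 7.44% and 74.4%, and 10% of the genes lay below 31.4% and another 10% above 62.1%. A level of at least 40% was reached by 806 members (83.1%), and 36 (3.71%) were below 20%. Silent long genes were at 13.2% ± 8.41 (SD, 821 genes), with 716 (87.2%) below 20%, and genes of intermediate RNA level were at 34.2% ± 17.5 (SD, 531 genes).

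With 1 PBAT library no test between samples was possible, and genes are not replicates, so the difference was read on each chromosome. Members were higher than silent long genes on 19 of 19 autosomes, by 32.4 to 40.2 percentage points, with members at 44.8% to 52.7% and silent long genes at 11.9% to 15.6%. Over all genes the difference was 36.2 points. Expressed genes of shorter extent had similar means, with 52.1% ± 12.2 (SD, 1215 genes) for 50 to 100 kb and 51.8% ± 14.2 (SD, 2339 genes) for 20 to 50 kb.

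**Figure D1:**
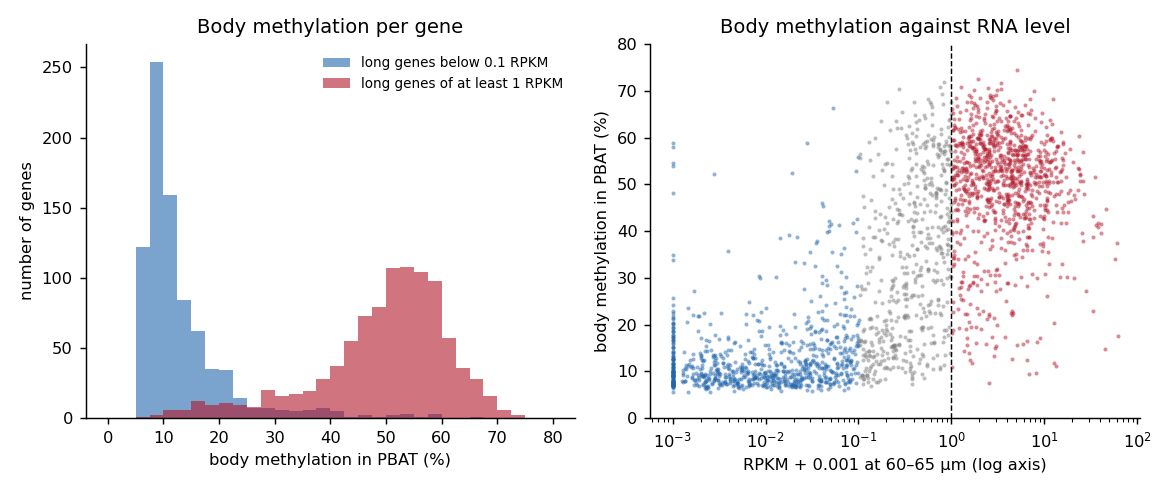
Left, number of genes by body methylation level in PBAT (percent) for long genes of at least 1 RPKM and below 0.1 RPKM. Right, body methylation against RPKM at 60–65 μm with 0.001 added (log axis), 1 point per autosomal gene of at least 100 kb, the dashed line marking 1 RPKM, with most members between 31.4% and 62.1%.

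Among all long genes body methylation was higher at higher RNA levels between about 0.03 and 1 RPKM, with no such order below or above this range. Long genes at 0 RPKM averaged 13.8%, those above 0 and up to 0.01 RPKM 11.1%, those of 0.01 to 0.03 RPKM 12.3%, those of 0.03 to 0.1 RPKM 16.5%, those of 0.1 to 0.3 RPKM 26.3% and those of 0.3 to 1 RPKM 39.3%. Members of 1 to 3 RPKM averaged 49.4%, of 3 to 10 RPKM 50.1% and of 10 RPKM or more 47.7%, each with an SD over genes of 10.8 to 13.2 points. Within the members Spearman's rho between RPKM and body level was −0.06 (970 genes, a description, since genes are not independent replicates). The members with the highest RNA levels lay below the members' mean. Kpna7, the importin alpha of oocytes and early embryos, had 61.8 RPKM and a body level of 17.5%, Bcar3, an adaptor of tyrosine kinase signalling, 60.4 RPKM and 37.4%, and the microtubule-associated Mtus1 57.2 RPKM and 34.0%. Me1, the cytosolic malic enzyme, had 46.5 RPKM and 44.7%, and 4933427D06Rik 44.8 RPKM and 14.7%.

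Length and sequence composition varied with the level to a limited degree. Spearman's rho with extent was −0.10 and with CpG density −0.29 (970 genes each). The members in the lowest class of CpG density, of 3 classes of near-equal size, averaged 53.2% ± 10.9 (SD) and those in the highest 46.3% ± 11.9 (SD). By extent these classes had means of 50.7%, 50.0% and 47.6% from the shortest to the longest. Bins showed the same order by CpG density, with 49.3%, 47.6% and 43.7%, and 8.74% of the bins of lowest and 14.5% of those of highest density were under 10%. In 893 members with an annotated exon structure, exons were at 51.9% ± 14.5 (SD) and introns at 49.5% ± 12.5 (SD), with exons higher in 544 genes and a mean difference of 2.40 points that was smaller than its SD over genes of 12.1.

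Averaged over long expressed genes, methylation rose within the first kilobases and fell close to the annotated end, while the distance at which it began differed widely between genes. In the first 5 kb members were at 9.77% ± 11.9 (SD, 970 genes), against 6.94% in silent long genes. In the bin from 5 to 10 kb the mean was 37.6% (SD 24.5), from 10 to 15 kb 40.1%, from 25 to 30 kb 44.0%, from 50 to 55 kb 47.8% and from 75 to 80 kb 51.2%, after which it levelled off, at 50.1% from 100 to 105 kb. In 1-kb bins the level was 5.65% in the first kilobase, 11.8% from 1 to 2 kb, 20.7% from 2 to 3 kb, 27.6% from 3 to 4 kb and 37.7% from 9 to 10 kb. The 5 kb before the start were at 9.37%, and the bins further upstream at 20.6% to 22.2%. When bodies were divided into 3 parts of equal length, the first averaged 45.2%, the middle 50.9% and the last 52.5%, and the last exceeded the first in 653 of 970 genes (67.3%).

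**Figure D2:**
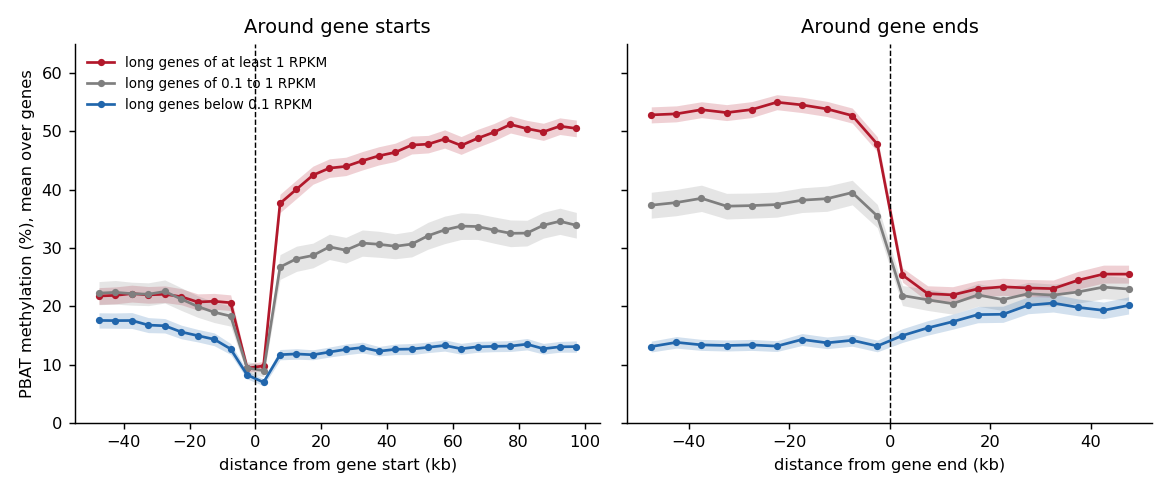
Mean PBAT methylation over genes (percent) in 5-kb bins by distance from the gene start (left) and from the gene end (right), for long genes of at least 1 RPKM, of 0.1 to 1 RPKM and below 0.1 RPKM, with bands of 2 standard errors over genes. The bands reflect the spread over genes in 1 library. Genes are not replicates, and the bands hold no error between libraries. Members rise from 9.77% in the first 5 kb to 37.6% in the next bin and fall from 47.8% in the last bin to 25.4% after the end.

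At the end the level fell within one bin, from 47.8% in the last 5 kb of the gene to 25.4% in the following 5 kb and 22.2% in the bin after it. Compared over 5 to 20 kb on either side of the end, 967 members were at 53.7% ± 16.5 (SD) inside and 22.4% ± 18.6 (SD) outside. The inner side was higher in 852 members (88.1%), by at least 20 points in 671 (69.4%). The level beyond the end differed with what followed the gene. Where another gene of at least 1 RPKM lay in the outer window (270 members) it averaged 36.4%, and where no gene lay there (465 members) 16.5%, with the inner side higher in 435 of these (93.5%). Silent long genes had 14.1% inside and 17.3% outside.

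The onset of methylation, taken as the first of 3 consecutive bins of at least 25%, lay at a median of 10 kb from the start and was found in 963 of 971 members. It lay before 20 kb in 606 members (62.4%), from 20 to 50 kb in 230, from 50 to 100 kb in 83 and at 100 kb or more in 44. In 115 members with a matched GENCODE annotation and an onset at 50 kb or later, the part before the onset averaged 14.5% ± 6.98 (SD) and the part after it 50.5% ± 9.76 (SD), a split that the definition of onset favours. Starts of further annotated transcripts of the same gene were looked for in a window. It ran from 10 kb before the onset to the end of the 5-kb bin of the onset. This window held such a start in 39 of these 115 genes (33.9%). Placed at each of their measured bins from 20 kb on, the same window held such a start in 21.8%, as a mean over genes. In the 325 such members with an onset at 20 kb or later these shares were 28.0% and 23.6%. Enox1, named here after its values were seen, had an onset at 425 kb of 565 kb, with 9.51% before it and 52.4% after it, and an annotated transcript of the gene started within this window. Mgat4c, an N-acetylglucosaminyltransferase, and Sorcs3, a sortilin-related receptor, had onsets at 685 kb and 535 kb with no annotated start within the window, and were also named after their values were seen.

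**Figure D3:**
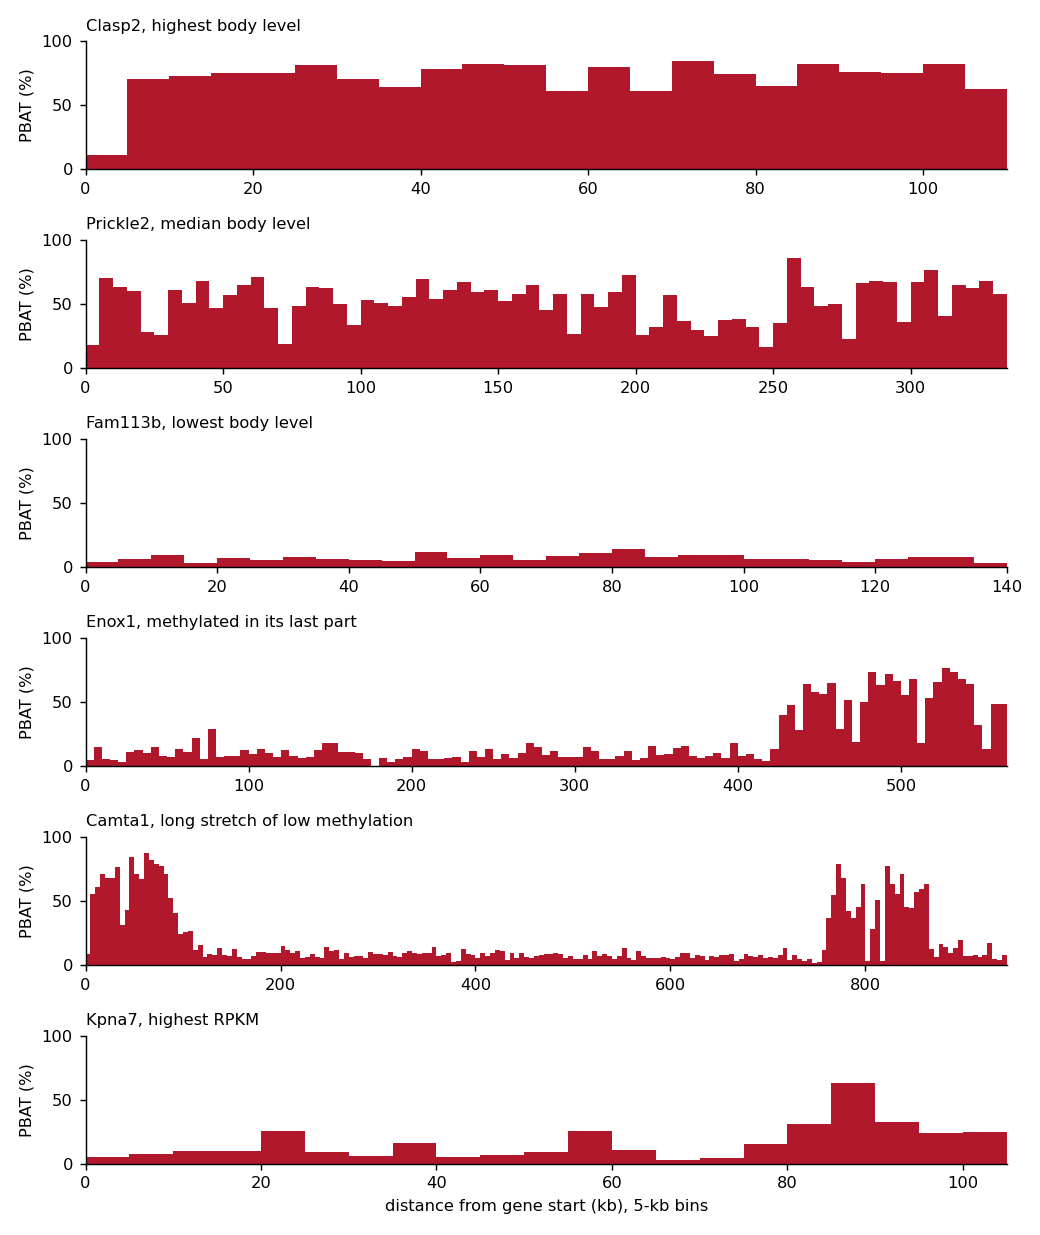
PBAT methylation (percent) in 5-kb bins along 6 long expressed genes, by distance from the gene start (kb). Clasp2 is high from 5 kb on, Prickle2 varies around 51.7%, Fam113b is low throughout, Enox1 is methylated after 425 kb, Camta1 from 5 to about 95 kb and over most bins from 760 to 865 kb, and Kpna7 mainly near 85 kb.

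Within genes, levels varied between bins by more than the counting error. The SD of the bins of a gene had a median of 19.9 points, whereas the binomial counting error of these bins had a median of 3.68. Of all body bins, 20769 (53.6%) were at 50% or more, 1545 (3.99%) at 80% or more and 4302 (11.1%) under 10%, and the most frequent class was 60 to 70%, with 7695 bins. In silent long genes 54.5% of the bins were under 10% and 4.27% at 50% or more. The low bins of members formed 1951 runs in 593 genes, of which 1151 were single bins, and 377 of the 970 measured members had none. Runs of at least 50 kb numbered 38 and lay in 21 genes. Taking the longest run of each gene, the top values were 215 kb in Gm20388 (6.11% of 20884 calls, beside a further run of 140 kb), 145 kb in Camta1 (6.55% of 12925 calls) and 140 kb in Fgfr2, a fibroblast growth factor receptor (5.35% of 5567 calls). The extents of these genes rest on few transcripts, since the Fgfr2 run was covered by 1 of 14 annotated GENCODE transcripts of the gene (median length 19.7 kb), the Camta1 run by 3 of 13 (median 69.7 kb), and Gm20388 has 1 transcript, which spans 82 other genes of the table. Whether these runs were transcribed was not tested.

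Few of these low bins held another gene start. The annotated start of another gene lay in 155 of the 4302 bins under 10% (3.60%) and in 152 of the 20769 bins at 50% or more (0.732%). The starts that did lie in a body were low where the inner gene was itself expressed. The 94 bins with the start of another gene of at least 1 RPKM averaged 14.3% ± 17.5 (SD), with 69.1% of them under 10%, the 434 bins with any other start 33.3% ± 27.1 (SD), and bins without one 47.0%. These bins also differed in CpG density, with 25.6 CpG per kb in the first group and 9.31 in the last, and the part of density in the difference was not tested. The same order held in CpG-dense stretches, taken as windows of 200 bp with at least 10 CpG sites and joined where they overlapped, although density was unequal here too, with a median of 39 CpG sites in stretches near another start and 13 in the others. The 238 stretches within 1 kb of another gene start averaged 19.8%, and their host genes 36.5% (difference −16.6 points). The 7078 others averaged 44.9%, and their hosts 44.2% (difference 0.702 points).

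The members with the highest and the lowest levels have varied known functions. The highest were Clasp2 at 74.4%, which binds microtubule plus ends, Parp8 at 72.6%, of the ADP-ribosyltransferase family, Adck1 at 71.6%, the phospholipid flippase subunit Atp11b at 70.9% and the lyase-like Hmgcll1 at 70.5%, and none of them had a body bin under 10%. Clasp2 lies at chr9:113812586-113919697 and was at 11.5% in its first 5 kb and between 61.1% and 84.6% in each bin from 10 kb on. The lowest were Fam113b at 7.44%, Esrrb, an orphan nuclear receptor, at 9.45%, the homeodomain factor Meis2 at 9.56%, 2610034M16Rik at 10.9% and the ubiquitin ligase Rnf220 at 11.2%. Fam113b lies at chr15:97247107-97385689 and was at no more than 14.1% in any bin. The RNA levels of these genes at 60–65 μm were not all low. Rnf220 had 13.7 and 12.8 RPKM, Meis2 8.26 and 7.97 RPKM and Esrrb 7.27 and 6.55 RPKM in libraries A and B. All 5 of these genes had lower values in both 10–30 μm libraries, for example Esrrb with 1.00 and 1.60 RPKM and Fam113b with 0.581 and 0.644 RPKM, an order that the choice of members by the 60–65 μm value favours.

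The RNA level before the methylation window was also set beside the body level. The 827 members of at least 1 RPKM in both 10–30 μm libraries had a body level of 50.2% ± 11.3 (SD), the 32 members below 0.5 RPKM in both 39.3% ± 15.5 (SD), and the 111 others 47.0% ± 14.2 (SD). These groups also differed at 60–65 μm, with medians of 4.18, 1.48 and 1.55 RPKM. Over all 970 members Spearman's rho between RPKM at 10–30 μm and body level was 0.03, with means of 47.7%, 50.8% and 49.9% in the lowest, middle and highest of 3 classes of near-equal size. Parp8 had 0.0880 and 0.124 RPKM at 10–30 μm and a body level of 72.6%. The 5 longest members had body levels below the members' mean, with Gm20388 (4435 kb) at 27.7%, Fgfr2 (2961 kb) at 27.1%, Macrod2, a hydrolase of ADP-ribose marks (1998 kb), at 22.4%, Arfip1 (1391 kb) at 22.9% and Fam190a (1203 kb) at 29.0%. The extents of the table are not always those of the transcript, and the GENCODE extent of Arfip1 is 0.0622 of that in the table.

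Gene groups, listed from general knowledge, had medians of 44.6% to 58.0%, beside 51.7% for all members (806 of 970 at 40% or more), and these differences were not tested. Chromatin and transcription regulators (27 members) had a median of 51.6%, with 23 at 40% or more, from Hdac4, a histone deacetylase, at 64.1% to Esrrb at 9.45%. Cytoskeleton and polarity genes (29 members) had a median of 51.8%, with 27 at 40% or more, the highest of them Clasp2 at 74.4%. Kinases, receptors and phosphodiesterases (26 members) stood at 53.6%, with 21 at 40% or more, the kinase Mtor at 62.5%, the growth factor receptor Igf1r at 52.9% and the phospholipase Plce1 at 12.3%. Ubiquitin ligases and proteases (19 members) stood at 58.0%, with 17 at 40% or more, the protease Usp24 at 69.1% and Rnf220 at 11.2%, and DNA repair and chromosome genes (18 members) at 55.1%, with all 18 at 40% or more. Adhesion and synapse genes (11 members) stood at 48.9%, with 8 at 40% or more, from the scaffold Dlg1 at 60.7% to the protocadherin Pcdh9 at 11.9%, and genes at common fragile sites (7 members) at 44.6%, with 4 at 40% or more, from the receptor phosphatase Ptprg at 53.7% to Macrod2 at 22.4%. The de novo methylation list had 4 members, all 4 at 40% or more, among them the H3K36 methyltransferase Ash1l at 61.5%, the demethylase Kdm2b at 46.6% and Dnmt3a itself at 43.9%.

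The RRBS libraries show when these bodies gained methylation. Over all member bodies the pooled level was 3.34% in library A and 2.70% in library B of 40–45 μm oocytes, 15.8% (A) and 14.8% (B) in the 50–55 μm class, and 25.7% (A) and 28.2% (B) in the 60–65 μm class, on 1603596 to 3342202 calls per library. Each class thus lay above the one before it with no overlap of libraries. The class means were 3.02% ± 0.452, 15.3% ± 0.744 and 27.0% ± 1.72 (SD, n = 2 each), with a difference of 12.3 points in the first step and 11.7 in the second. With the first 10 kb of the genes included the differences were 7.54 and 8.02 points. An exact two-sided permutation test of 2 against 2 libraries gave p = 0.333 for each step, which is the smallest p this design allows. RRBS and PBAT read different positions, so their levels are not set against each other. On the 29839 positions listed in all 6 libraries the levels were 3.05% and 2.69%, 13.2% and 14.2%, and 25.4% and 27.9%. Across the 821 members with at least 100 calls in both 60–65 μm libraries, RRBS and PBAT levels had a Spearman's rho of 0.60, a description over genes that share these libraries.

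Silent long genes stood at 3.35% (A) and 2.61% (B) in the smallest class, at 7.21% (A) and 7.26% (B) in the 50–55 μm class and at 5.73% (A) and 5.21% (B) in the 60–65 μm class. Genes of intermediate RNA level reached 17.1% and 18.5%, and expressed genes of 50 to 100 kb 30.9% and 33.3%. Within member bodies the values differed with the distance from the start. In the first kilobase all 6 libraries stayed between 0.716% and 1.05%. From 5 to 10 kb the libraries went from 2.38% and 1.89% through 9.70% and 10.3% to 13.9% and 16.2%, and from 50 to 100 kb from 3.54% and 2.94% through 18.4% and 17.0% to 30.4% and 33.2%. CpG-dense stretches within 1 kb of another gene start went from 0.798% and 0.719% to 3.26% and 4.53%, and the other dense stretches of member bodies from 3.56% and 3.29% to 24.0% and 27.9%. Those of the latter with under 50% of their bases masked as repeats went from 2.55% and 2.17% to 23.2% and 26.9%.

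**Figure D4:**
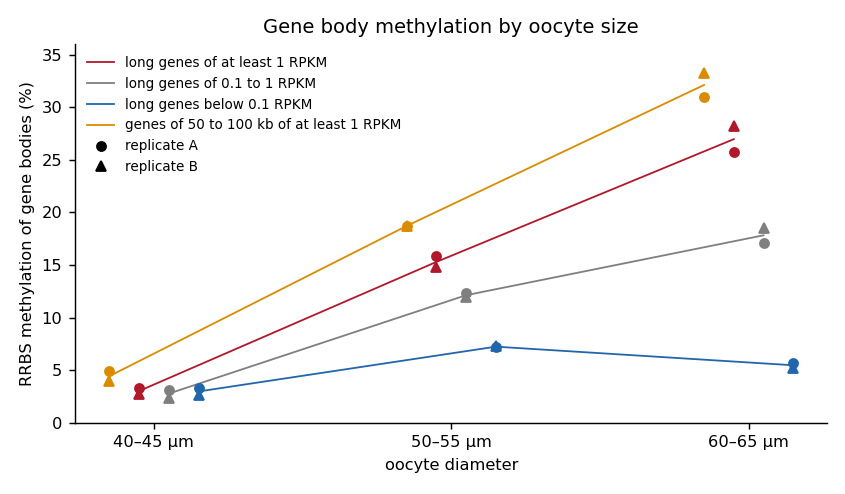
RRBS methylation of gene bodies (percent of pooled calls, from 10 kb after the start) by oocyte diameter, with 1 point per library (circles, replicate A, triangles, replicate B) and lines through the class means, for 4 sets of genes. Members go from 3.34% and 2.70% to 25.7% and 28.2%, and silent long genes stay at or below 7.26%.

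Gene by gene, methylated and unmethylated calls entered the quasi-likelihood test of edgeR, over 4466 genes of at least 20 kb with at least 20 calls per library and a mean of at least 5%, of which 800 were members and 342 silent long genes. Genes low at 40–45 μm pass this minimum through the later classes in which they are high, so the shares called are set in part by it. From 40–45 to 50–55 μm, 742 of 800 members (92.8%) rose at an adjusted p under 0.05, beside 80.9% of all genes tested, and none fell. In this comparison no gene of the 4466 was called lower by edgeR, none had an unadjusted p under 0.05 in that direction, and limma called 1. Without the minimum 741 of 866 members (85.6%) rose, beside 59.5% of 6561 genes. From 50–55 to 60–65 μm, 265 members (33.1%) rose, beside 22.6% of all genes, and 1 fell, beside 1.5%. This second count rests on single libraries and on the test, since it was 0 without 50–55 μm B, 60–65 μm A or 60–65 μm B, 444 and 440 without 40–45 μm A or B and 114 without 50–55 μm A, and 0 with limma or without the minimum of 5%. From 40–45 to 60–65 μm, 747 members (93.4%) rose, beside 80.3%, and none fell, beside 0.0672%. Without the minimum these were 755 of 866 members (87.2%) rising, beside 56.7%, and none falling, beside 0.0762%, with median log2 odds ratios of 4.17 for members and 3.01 for all genes. With the minimum the median log2 odds ratio of members was 4.33, against 4.20 over all genes tested, a comparison among genes that passed the minimum of 5%. Of the listed groups, 19 of 20 chromatin and transcription regulators rose over the whole interval, 25 of 27 cytoskeleton genes, 23 of 24 kinases, receptors and phosphodiesterases, 14 of 15 ubiquitin ligases and proteases, 12 of 14 DNA repair genes, 8 of 10 adhesion genes, 6 of 7 fragile-site genes and 3 of 3 genes of the methylation machinery, beside 80.3% of all genes tested, and none fell. Without the minimum these counts were 22 of 26, 25 of 27, 23 of 25, 15 of 16, 12 of 14, 8 of 11, 6 of 7 and 3 of 3 in the same order, beside 56.7%, and none fell. Of the 342 silent long genes tested, 189 (55.3%) rose and none fell in the first step, 9 (2.63%) rose and 40 (11.7%) fell in the second, and 82 (24.0%) rose and 3 (0.877%) fell over the whole interval. Calls of silent long genes rested on the same choices. In the first step 330 of 724 (45.6%) rose without the minimum, 8 fell without 50–55 μm A and 1 fell with limma. In the second step there were 0 higher and 0 lower with limma, without the minimum or without 50–55 μm B, 60–65 μm A or 60–65 μm B, 4 and 16 without 50–55 μm A, and 19 and 80 without either 40–45 μm library. Without the minimum 98 of 724 (13.5%) rose over the whole interval.

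The 53 members tested and not called over the whole interval had fewer calls, with a median over genes of 107 in their shallowest library against 793 for the called ones, and a median level at 60–65 μm of 13.1% against 39.2%. Their median PBAT level was 50.5%, against 51.9% for the called ones. The largest gains were fitted for Slmap, a sarcolemma-associated protein, Ambra1, a regulator of autophagy, and Trip12, a ubiquitin ligase, and rest on 40–45 μm levels near 0. Slmap was at 0.654% (A) and 0% (B) in 40–45 μm oocytes, 26.3% (A) and 19.7% (B) in the 50–55 μm class and 50.8% (A) and 44.7% (B) in the 60–65 μm class (log2 odds ratio 9.10, adjusted p = 0.000123, edgeR). Ambra1 was at 1.89% and 0%, 48.3% and 56.9%, and 66.4% and 73.9% (8.03, adjusted p = 9.67e-05, edgeR, and 12.14 without 40–45 μm A). Trip12 was at 0% and 0.498%, 27.2% and 0%, and 35.7% and 70.1% (7.89, adjusted p = 0.00588, edgeR), with 74 to 201 calls per library and the replicates of 50–55 μm far apart.

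At the positions that RRBS read, a few member bodies were already methylated at 40–45 μm. The part of repeats in these levels was not tested. With at least 100 calls in both 40–45 μm libraries, 27 of 863 members (3.13%) were at 20% or more in both, beside 1.84% of 6585 genes of at least 20 kb and 24 of 728 silent long genes (3.30%). The highest, named after their values were seen, were Pms1, a mismatch repair gene, with 72.3% and 71.4%, and Pign, of glycosylphosphatidylinositol anchor synthesis, with 66.9% and 74.8%. At 60–65 μm Pms1 was at 83.2% and 89.3% and Pign at 71.6% and 83.0%, and neither passed the test of 60–65 against 40–45 μm (adjusted p = 0.107 and 0.472, edgeR).

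RNA of some members changed from 10–30 to 40–45 μm, before most of the methylation gain, and from 40–45 to 50–55 μm, within it. Summed levels of markers of other cells moved with these classes. The theca and stroma markers summed to 3.11 and 2.29 RPKM at 10–30 μm and to 1.40 and 0.624 RPKM at 40–45 μm, and the granulosa markers to 0.621 and 0.639, 0.846 and 0.721, 1.73 and 1.38, and 2.50 and 2.17 RPKM from the smallest to the largest class. Only 1 of the 8 granulosa markers was at 1 RPKM or more at 60–65 μm. The median granulosa marker was at 0.0620 and 0.0531 RPKM at 10–30 μm and at 0.171 and 0.130 RPKM at 60–65 μm. The part of these markers in the changes was not tested. Because the members were chosen for a high level at 60–65 μm, earlier rises are favoured, nothing is read from their number, and contrasts with 60–65 μm were not tested. The median over members in libraries A and B was 2.70 and 3.19 RPKM for 10–30 μm, then 2.96 (A) and 3.17 (B) for 40–45 μm, 3.28 (A) and 3.50 (B) for 50–55 μm, 3.65 (A) and 3.46 (B) for 60–65 μm, and 3.70 in GV oocytes. With limma on log2 of RPKM plus 0.1, over 10518 genes, 213 members rose and 41 fell from 10–30 to 40–45 μm at an adjusted p under 0.05, beside 13.2% and 9.84% of all genes, and 81 rose and 10 fell from 40–45 to 50–55 μm, beside 5.65% and 3.1%. Without scaling between libraries the first step had 153 members higher and 62 lower, beside 10.3% and 14.5% of all genes, so that more genes were lower than higher over the table, and the second step had 96 and 8, beside 6.46% and 3.29%. With the replicate letter as a block, 285 members rose and 59 fell in the first step (17.6% and 14% of all genes) and 147 rose and 27 fell in the second (10.1% and 7.47%). Leaving out single libraries moved the unblocked counts to 83 to 282 and 7 to 54 in the first step. In the second step no member was called without 40–45 μm B or without 50–55 μm A, and 20 rises were called without 50–55 μm B. By group, 8 of 27 chromatin and transcription regulators rose in the first step and none fell, 9 of 26 kinases, receptors and phosphodiesterases rose and 1 fell, 5 of 29 cytoskeleton genes rose and 1 fell, and 4 of 11 adhesion genes rose and none fell. Of ubiquitin ligases and proteases 2 of 19 rose and 2 fell, of DNA repair genes 2 of 18 rose and 1 fell, of the methylation machinery 1 of 4 rose, and none of 7 fragile-site genes was called.

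The largest rises from 10–30 to 40–45 μm were in Adcy1, a neural adenylyl cyclase, from 0.977 and 1.01 to 4.18 and 3.39 RPKM (log2 change 1.89, SE 0.13, adjusted p = 0.000557, limma), Slco5a1, of the organic anion transporter family, from 0.265 and 0.269 to 1.30 and 0.876 RPKM, and the secreted factor Bmp5, from 0.418 and 0.402 to 1.78 and 1.24 RPKM. Body levels in PBAT were 48.0%, 31.4% and 47.2% for these genes. The largest falls were in Sycp1, of the synaptonemal complex of meiotic prophase, from 10.1 and 9.56 to 5.40 and 2.96 RPKM (log2 change −1.21, SE 0.26, adjusted p = 0.0137, limma, with a change of −0.75 without 40–45 μm B and an adjusted p of 0.0636 without 10–30 μm A), Serinc5, from 3.97 and 4.12 to 1.68 and 1.98 RPKM, and Kifap3, an accessory subunit of a kinesin, from 5.82 and 6.62 to 2.72 and 3.69 RPKM. Body levels were 48.7% for Sycp1, 45.8% for Serinc5 and 61.6% for Kifap3. From 40–45 to 50–55 μm the largest rises were in the splicing factor Rbm20, from 0.103 and 0.0462 to 0.612 and 0.435 RPKM (log2 change 1.83, SE 0.21, adjusted p = 0.00950, limma), Parp8, from 0.446 and 0.393 to 1.35 and 1.23 RPKM, and the receptor Lgr6, from 0.455 and 0.410 to 1.35 and 1.22 RPKM. Over the same step the RRBS level went from 1.86% and 0.532% to 11.2% and 12.3% in Rbm20, from 2.38% and 0% to 46.6% and 29.3% in Parp8 and from 2.68% and 1.17% to 15.7% and 16.4% in Lgr6, a step in which 92.8% of the members and 80.9% of all genes tested rose, or 85.6% and 59.5% without the minimum. The largest falls were in C130026I21Rik, from 23.7 and 28.7 to 13.3 and 15.8 RPKM, Lrrc6, an assembly factor of ciliary dynein, and Kifap3. C130026I21Rik was at 38.2% and 41.5% at 40–45 μm and 39.9% and 37.9% at 60–65 μm in RRBS (adjusted p = 0.892, edgeR).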

How the data were processed

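Of 16 samples, 1 PBAT, 6 RRBS and 9 RNA-seq columns were used, grouped by the labelled diameter. For methylation, the authors trimmed reads with Trim Galore (0.3.5, per the submitters' processing notes), aligned them to GRCm38 with Bismark (0.10.0 and 0.14.0), removed duplicates from PBAT, and deposited counts of methylated and unmethylated calls per CpG cytosine. The deposited percent at each cytosine was not used and levels were computed from these counts. RRBS reads carry no molecular identifiers, and no removal of duplicates is stated for them. For RNA the authors aligned with TopHat2 (2.0.9) and deposited a table of values per gene that is named as read counts. Its values are not whole and were taken as RPKM from how they scale with exon length. The deposited RPKM unit and the tool that made the table are not stated.

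The members and gene lists were chosen with earlier results of these data known. Gene extents are those of the table, 839 of 971 members matched GENCODE M21 in extent, and 334 overlapped another gene. RRBS gain was tested with edgeR 4.0.16 in 1 fit of 6 libraries. RNA was tested with limma 3.58.1 with trend on log2(RPKM + 0.1), after scaling by a trimmed mean of M values, on genes of at least 0.5 RPKM in 2 of 8 libraries. Both used Benjamini-Hochberg adjustment over all genes tested, with a threshold of 0.05. Tests were first run on simulated data. Named genes were the 5 highest, lowest, longest and most expressed, the 3 on each side of the RPKM limit, the 3 with the longest low runs and the 3 with the largest called changes, with list examples. Alternatives covered call minimum, bin size, overlapping genes, expression limits, scaling, filters, tests, replicate block and single libraries. R 4.3.3, Python 3.11.15, numpy 2.4.6, pandas 2.3.3, scipy 1.17.1 and matplotlib 3.10.9 were used.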

Additional observations from a re-analysis of the deposited data

How the results depend on the processing

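The PBAT mean of member bodies was 49.5% and became 49.6% with at least 50 calls per bin, 49.5% in 2-kb bins, 49.6% as a mean over positions with at least 5 reads, 50.2% without overlapping genes, 49.5% with 1 RPKM required in both libraries and 47.8% from the gene start, and 49.8% with GENCODE-matched extents, an alternative chosen after seeing the data. The difference from silent long genes, 36.2 points, became 36.3 in 2-kb bins, 36.6 over positions, 37.1 without overlapping genes and 34.3 against genes at 0 RPKM in all 8 growing libraries. The share of bins under 10% was 8.45% without overlapping genes and 10.8% with matched extents, both chosen after seeing the data. In none of the alternatives run for the difference from silent long genes did it change direction.

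The RRBS steps stayed at 11.7 to 12.8, 10.4 to 12.9 and 22.7 to 25.2 points with each library left out, and were 7.54, 8.02 and 15.6 points over all positions from the gene start. Members called higher were 663 to 738, 0 to 444 and 700 to 754, and lower 0 to 1, 0 to 9 and 0. Over all genes tested, 3045 to 3617, 0 to 1910 and 3251 to 3645 were higher, and 0 to 15, 0 to 143 and 0 to 5 lower. In the second step no minimum and limma each gave 0 for members and 0 for all genes in both directions. Limma called 1 gene lower in the first step, and both alternatives called 5 lower over the whole interval.

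For RNA, single-library omissions gave 83 to 282 members higher and 7 to 54 lower (558 to 1605 and 289 to 1471 of all genes) in the first step, and 0 to 144 and 0 to 25 (0 to 940 and 0 to 778) in the second. With no filter 131 of 971 members were higher and 13 lower in the first step, beside 924 and 712 of 25965 genes. In the second step these counts were 0 and 0 for members and 0 and 0 for all genes. Without scaling 153 members were higher and 62 lower in the first step, beside 10.3% and 14.5% of all genes.

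The labels do not say that replicate letters pair the samples. Deviations of same-lettered libraries correlated at 0.03 to 0.05 in RRBS. In RNA they correlated at 0.59 to 0.67 among the 3 classes compared, and at −0.23 to 0.11 with 60–65 μm, which was in the same fit. With the letter as a replicate block, RNA calls were 147 members higher and 27 lower, and 1065 and 786 of all genes, in the second step. In the first step they were 285 and 59 members, and 1849 and 1472 of all genes. RRBS calls were 746, 243 and 749 of 800 members higher in the first step, the second step and the whole interval, beside 3579, 871 and 3581 of 4466 genes.

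With 1 PBAT library, levels have no replicate error. RRBS covers CpG-rich positions, 800 members were tested, and 2 libraries per class limit all tests.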
